A study of Mus musculus with 6 samples.

Results

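The TGF-beta genes described here are 9 genes of the transforming growth factor beta pathway, measured in mouse mammary tumours with and without serglycin. They were taken by symbol, as 3 ligands (Tgfb1, Tgfb2, Tgfb3), 3 receptors (Tgfbr1, Tgfbr2, Tgfbr3), 2 SMAD proteins (Smad3, Smad7) and the latent ligand binding protein Ltbp1. Each was represented by 1 probe set that carries that symbol alone, so that 9 of the 22180 genes with such a probe set are members. The labels used here number 6 tumours and give no animal identity, so each tumour was taken as coming from a separate mouse. All 6 were PyMT+, that is, they carried a transgene for the middle T oncoprotein of polyoma virus, under which mammary tumours form. The sources used here do not give the promoter of the transgene or the age of the mice. Of these mice, 3 lacked serglycin (PyMT+ SG-/-) and 3 were heterozygous (PyMT+ SG+/-), so that the comparison group kept 1 working serglycin allele and no wild-type tumour was compared. Serglycin is a proteoglycan of secretory granules. The question is whether TGF-beta genes are among those that change in a tumour without it.

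TGF-beta ligands are made as precursors whose propeptide stays wrapped around the mature factor and keeps it latent. Latent binding proteins such as Ltbp1 tie this complex to the matrix, and integrins and proteases release the factor from it. The freed ligand brings the type II receptor Tgfbr2 and the type I receptor Tgfbr1 together, and Tgfbr1 then phosphorylates Smad2 and Smad3. These enter the nucleus with Smad4 and switch target genes, among them Smad7, which closes the loop by blocking the receptor. In mammary tissue TGF-beta restrains epithelial growth, and in mammary tumours it is also known for its effects on stroma, matrix and invasion.

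Of the 9 members, 0 differed between the genotypes after adjustment over all genes in limma, 0 had an unadjusted limma p under 0.05, and in all 9 the values of SG-/- and SG+/- tumours overlapped. Over all genes, 0 of 22180 (0%) passed the adjusted threshold, 2.11% had an unadjusted p under 0.05 and 6.03% had no overlap between genotypes. The serglycin gene Srgn, which was targeted, did not pass either, so a count of 0 does not show that nothing changed. Differences are given as SG-/- minus SG+/- on the log2 scale and ran from -0.21 for Tgfbr3 to 0.28 for Tgfbr2. Their median was 0.049, with 6 of 9 members higher in SG-/- tumours, while over all genes the median was -0.014 and 46.3% were higher. With arrays centred on their brighter genes, 7 of 9 members were higher with a median of 0.089, against 57.3% of all genes. The count without centring moved with single tumours. Without SG-/- replicate 3, an array that stands apart from the others, 9 of 9 members were higher, with a median of 0.16, while the share of higher genes among those above the dim level (a mean over 6.09, the 40th percentile of probe set means) went from 42.2% to 57.3%. With SG-/- replicate 2 left out, 3 of 9 members were higher, against 39.2% of the genes above the dim level. In each member the range within at least 1 genotype was larger than the difference between genotypes. That also held for Dcn, a gene without overlap (range 0.97 in SG-/- tumours, difference 0.93). Such a range is therefore no measure of whether the genotypes differ. The arrays, 3 per genotype, limit the precision. The 95% confidence intervals of all 9 differences held 0, and they reached from 0.57-fold at the lowest to 1.65-fold at the highest. These bounds belong to Tgfbr3 and Tgfbr2, and the interval of each member is given with its values.

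**Figure D1:**
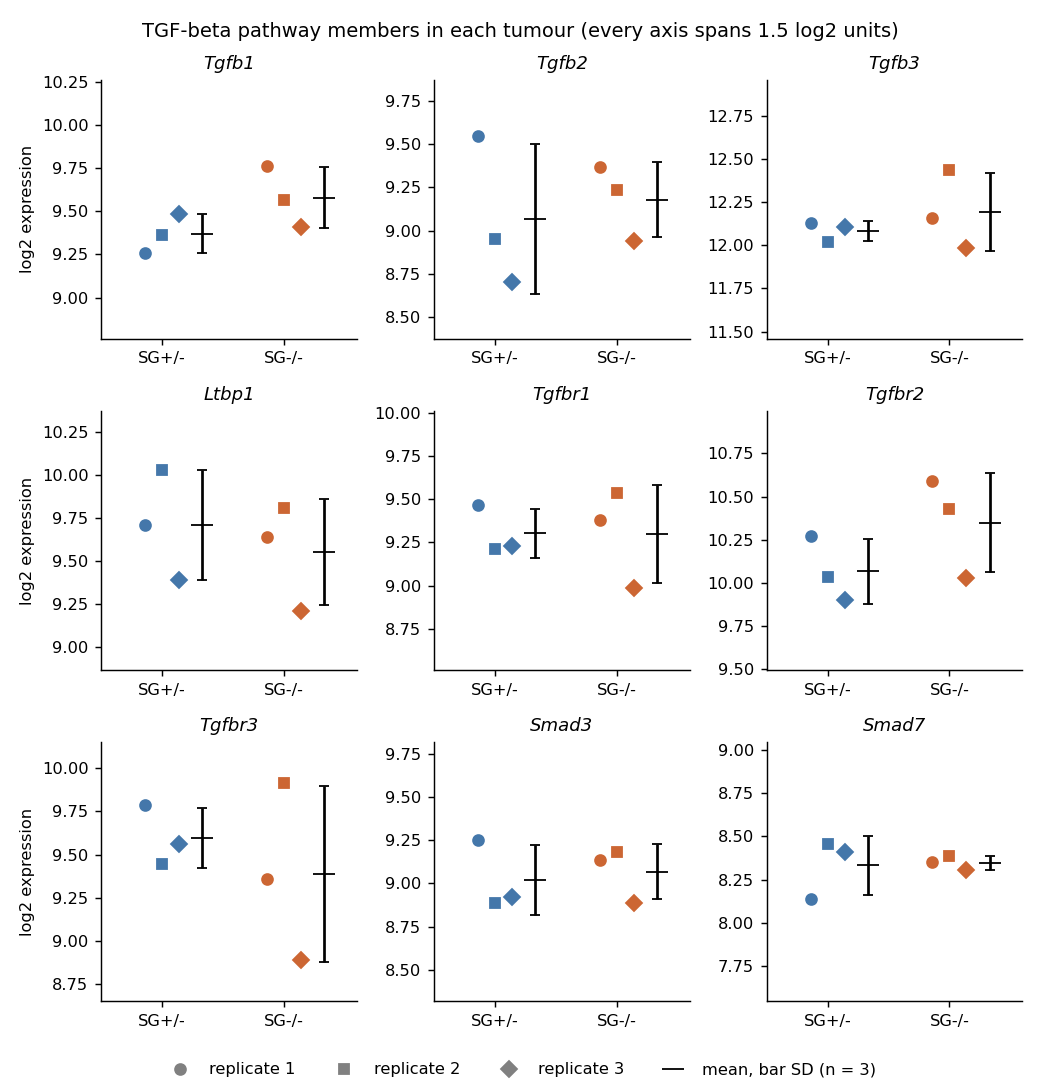
Each panel plots the log2 expression of 1 member (vertical axis, equal span in every panel) in the 3 SG+/- (blue) and 3 SG-/- (orange) tumours, with the mean and SD beside the points. In all 9 panels the points of the genotypes overlap, and Tgfbr3 in SG-/- tumours has the widest spread, from 8.89 to 9.91.

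The targeted gene was checked first. Srgn was 6.52 ± 0.22 in SG+/- and 5.0 ± 0.10 in SG-/- tumours (SD, n = 3 each), a difference of -1.52 with no overlap, as the labels require (limma adjusted p = 0.467). No gene had a smaller adjusted p, so the adjusted test missed even the targeted gene. Array medians ran from 6.50 to 6.73. SG-/- replicate 3 stood apart, with the narrowest interquartile range of all arrays, 2.56 against 2.85 to 3.15 in the others. In that array the mean of 1394 olfactory and vomeronasal receptor genes, taken as silent in this tissue, was 5.86, the highest of the 6. Of the 14861 genes above the dim level, 48.7% had their lowest value in SG-/- replicate 3. The mean over 8 markers of luminal mammary epithelium ran from 10.43 to 10.84 over the arrays. On average Krt8 was at 12.2 and Epcam at 12.1, among the brightest of the 8, and Esr1 was the lowest at 8.12. Salivary gland markers were also present, and their mean over 9 genes ran from 7.14 to 8.14 in SG+/- and from 7.36 to 9.76 in SG-/- tumours, highest in SG-/- replicates 1 and 3. These 9 salivary gland genes did not move together, with 6 higher and 3 lower in SG-/- tumours, from -2.54 for Dcpp2 to 5.27 for Bpifa2. The part of that tissue in the results was not tested. In tumour pieces such as these, fewer cells of a type and less RNA per cell cannot be told apart. Nothing in the labels names the cells behind each signal.

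The letters before 3 start sites are given to show how the promoters of members differ. Tgfb2 and Smad3 had the highest Pearson correlation of the 36 pairs over the 6 tumours, which did not pass adjustment over the pairs, and Tgfb1 is the ligand whose correlation with Tgfb2 was nearest to 0. The letters are the 250 bases before the RefSeq start on GRCm38.p6, 5′ to 3′ on the gene's strand. Capitals mark matches, on either strand, to the SMAD box CAGAC, the cyclic AMP response element TGACGTCA, the AP-1 site TGANTCA, the GC box GGGCGG or the TATA box TATAAA.
Tgfb1, chr7:25686752-25687001, plus strand: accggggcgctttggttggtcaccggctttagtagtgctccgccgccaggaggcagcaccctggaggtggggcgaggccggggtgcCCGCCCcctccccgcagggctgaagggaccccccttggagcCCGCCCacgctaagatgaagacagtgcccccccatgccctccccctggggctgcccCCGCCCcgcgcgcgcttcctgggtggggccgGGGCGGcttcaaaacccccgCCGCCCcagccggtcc
Tgfb2, chr1:186705990-186706239, minus strand: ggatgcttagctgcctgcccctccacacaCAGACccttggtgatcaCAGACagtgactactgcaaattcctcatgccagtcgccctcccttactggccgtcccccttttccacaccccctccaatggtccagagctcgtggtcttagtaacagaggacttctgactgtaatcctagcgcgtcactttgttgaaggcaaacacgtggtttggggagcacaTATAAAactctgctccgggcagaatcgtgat
Smad3, chr9:63757995-63758244, minus strand: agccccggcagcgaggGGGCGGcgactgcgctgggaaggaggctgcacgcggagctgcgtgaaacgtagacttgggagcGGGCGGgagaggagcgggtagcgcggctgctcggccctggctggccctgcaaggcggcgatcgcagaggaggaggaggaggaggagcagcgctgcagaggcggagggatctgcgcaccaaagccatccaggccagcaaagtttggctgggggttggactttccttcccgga
The Tgfb1 window held 5 GC boxes and none of the other motifs, and its GC content was 75.2%. The Tgfb2 window had a GC content of 53.6%, with 2 SMAD boxes at -221 and -204 and a TATA box at -31, counted from the start. The Smad3 window held 2 GC boxes, at -234 and -171, and its GC content was 69.2%. Tgfb2 and Smad3 thus shared none of these motifs in the window. Of 32851 RefSeq windows of this length, 42.2% held a SMAD box, 32.7% a GC box, 12.4% a TATA box, 6.75% an AP-1 site and 1.55% a cyclic AMP response element. Windows were kept for 6 of the 9 members. Member windows on 1 chromosome were left out beforehand, although the 32851 windows include that chromosome. Tgfbr2 had 1 SMAD box, and Tgfbr1 and Ltbp1 had 2 windows each for separate starts. The first Ltbp1 window held a cyclic AMP response element at -73 beside a SMAD box at -64. A match describes letters in the reference and is not a measured binding site.

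Among the ligands, the values of the genotypes overlapped in each. Tgfb1 (Entrez 21803, probe set 17475342), the ligand most widely made by blood and stromal cells, was 9.26, 9.36 and 9.49 in the SG+/- tumours, in the order of their replicate numbers, and 9.76, 9.57 and 9.41 in the SG-/- tumours. SG-/- replicates 1 and 2 lay above every SG+/- tumour, and SG-/- replicate 3 lay below the highest of them. The difference was 0.21 (standard error 0.14, 95% confidence interval -0.13 to 0.55), which is 1.16-fold (limma adjusted p = 1.00, exact two-sided permutation p = 0.2). Leaving out SG-/- replicate 1 made it 0.12. With 3 against 3 tumours the smallest permutation p is 0.1.

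Tgfb2 (Entrez 21808, probe set 17230830), a ligand known for its roles in development and in epithelial plasticity, was 9.55, 8.95 and 8.70 in SG+/- and 9.37, 9.23 and 8.94 in SG-/- tumours. Both the highest and the lowest tumour were SG+/-, and the 3 SG-/- tumours lay between them. The range over SG+/- tumours, 0.85, exceeded the difference of 0.11 (standard error 0.24, interval -0.45 to 0.68, limma adjusted p = 1.00). The difference was -0.070 without SG+/- replicate 3. Tgfb3 (Entrez 21809, probe set 17282743), a ligand known to act in the involuting mammary gland, was 12.13, 12.02 and 12.10 in SG+/- and 12.16, 12.43 and 11.98 in SG-/- tumours. The SG+/- values were close together (SD 0.058), whereas SG-/- replicate 2 was the highest of the 6 tumours and SG-/- replicate 3 the lowest. Its difference was 0.11 (standard error 0.15, interval -0.25 to 0.46, limma adjusted p = 1.00), and it was -0.014 without SG-/- replicate 2.

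Ltbp1 (Entrez 268977, probe set 17339729), which anchors the latent complex in the matrix, was 9.71, 10.03 and 9.39 in SG+/- and 9.64, 9.81 and 9.21 in SG-/- tumours. The tumours of both genotypes were spread over about the same span, with SG+/- replicate 2 highest and SG-/- replicate 3 lowest. The difference was -0.16 (standard error 0.22, interval -0.68 to 0.37, limma adjusted p = 1.00). Leaving out SG-/- replicate 3 made it 0.015, and leaving out SG+/- replicate 2 made it 0.0028.

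The receptors had the highest and the lowest difference of the 9 members, and neither passed. Tgfbr2 (Entrez 21813, probe set 17531987), the type II receptor that binds the ligand, was 10.27, 10.03 and 9.90 in SG+/- and 10.59, 10.43 and 10.03 in SG-/- tumours. SG-/- replicates 1 and 2 were above all SG+/- tumours, as in Tgfb1, and SG-/- replicate 3 was level with SG+/- replicate 2. The difference was 0.28, which is 1.22-fold (standard error 0.19, interval -0.16 to 0.72, limma adjusted p = 1.00, exact two-sided permutation p = 0.3). Without SG-/- replicate 3 it was 0.44, with a limma adjusted p of 0.849. With SG-/- replicate 1 left out it was 0.16.

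Tgfbr1 (Entrez 21812, probe set 17413915), the type I receptor kinase that phosphorylates Smad2 and Smad3, was 9.47, 9.21 and 9.23 in SG+/- and 9.38, 9.54 and 8.99 in SG-/- tumours. The genotype means were 9.30 in both, and the SG-/- tumours held the highest and the lowest value. The difference was -0.0017 with an interval from -0.42 to 0.42, so that a change of up to 1.33-fold either way lay within it (limma adjusted p = 1.00).

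Tgfbr3 (Entrez 21814, probe set 17450618), the co-receptor betaglycan, a proteoglycan that presents ligand to Tgfbr2, varied most between tumours. It was 9.79, 9.44 and 9.56 in SG+/- and 9.36, 9.91 and 8.89 in SG-/- tumours. SG-/- replicates 2 and 3 differed by 1.02, which is 2.03-fold, within 1 genotype. The difference between genotypes was -0.21 (standard error 0.26, interval -0.82 to 0.41, limma adjusted p = 1.00), and it was 0.041 without SG-/- replicate 3. By its residual SD (the spread between tumours of the same genotype), Tgfbr3 stood at the 83rd percentile of all genes and Tgfb2 at the 80th.

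**Figure D2:**
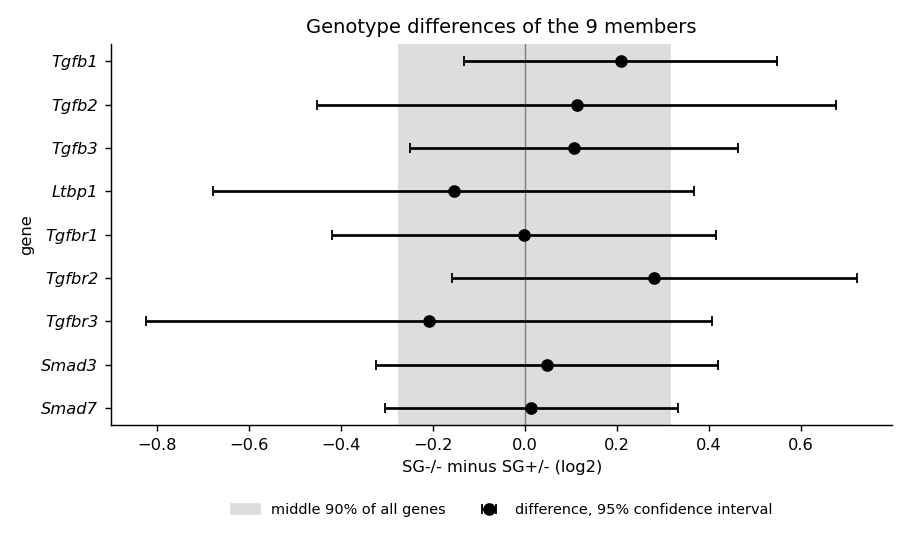
Points give the SG-/- minus SG+/- difference (horizontal axis, log2) of each member with its 95% confidence interval from limma, and the grey band spans the middle 90% of all 22180 genes, from -0.27 to 0.32. All 9 points lie in the band and all 9 intervals cross 0.

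The SMAD genes had the differences closest to 0 after Tgfbr1. Smad3 (Entrez 17127, probe set 17528111), which carries the signal to the nucleus, was 9.25, 8.89 and 8.92 in SG+/- and 9.14, 9.18 and 8.88 in SG-/- tumours. SG+/- replicate 1 was the highest and the genotypes overlapped throughout. The difference was 0.049 (standard error 0.16, interval -0.32 to 0.42, limma adjusted p = 1.00). Smad7 (Entrez 17131, probe set 17351862), the inhibitory SMAD that TGF-beta itself induces, was 8.14, 8.45 and 8.41 in SG+/- and 8.35, 8.39 and 8.30 in SG-/- tumours. The SG-/- values lay within 0.081 of each other and inside the SG+/- range. The difference was 0.014 (standard error 0.13, interval -0.30 to 0.33), which allows at most a 1.26-fold rise or a fall to 0.81-fold within the interval (limma adjusted p = 1.00). Smad7 had the smallest residual SD of the 9 members, at the 17th percentile of all genes.

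The members are also described tumour by tumour, and the shares of tumour and genotype in their variation were not tested. Of the 9, 5 had their lowest value in SG-/- replicate 3 and 3 their highest in SG-/- replicate 2. SG-/- replicate 3 was also the lowest array for 48.7% of all genes above the dim level, so that its low values are shared with many other genes. Over the 36 pairs of members, 29 correlated positively across the 6 tumours, with a median Pearson r of 0.40 and a range from -0.68 to 0.90. The same count over pairs of all genes was not taken, so whether it is particular to the members was not tested. Tgfb2 and Smad3 had the highest r, 0.90 (Spearman's rho 0.77, exact permutation p = 0.0375 and 0.103, adjusted over 36 pairs 0.362 for r). It was 0.93 over the 4 tumours left when the 2 farthest in Tgfb2 were taken out. Tgfbr1 and Tgfbr3 had an r of 0.90 (rho 0.83, exact permutation p = 0.0181 and 0.0583, adjusted 0.362), which was 0.50 over 4 tumours, so that it rests on the tumours at the ends of Tgfbr1. Tgfbr1 and Smad3 had an r of 0.89 (rho 0.94, exact permutation p = 0.0278 and 0.0167, adjusted 0.362), and 1.00 over 4 tumours. No pair passed the adjustment. The ligands Tgfb1 and Tgfb2 showed no clear relation over these tumours (r = 0.058, rho = -0.086, exact permutation p = 0.924 and 0.919, adjusted 0.938, r = 0.41 over 4 tumours). Smad7 ran opposite to Tgfb2, with an r of -0.68 (rho -0.54, exact permutation p = 0.118 and 0.297, adjusted 0.414), which was -0.11 over 4 tumours.

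The receptor mean of the arrays moved with several members, and its part in these relations was not tested. SG+/- replicate 1 and SG-/- replicate 1 had the lowest receptor means, at 4.58 and 4.57, and both were above their gene means in Tgfb2, Smad3, Tgfbr1 and Tgfbr2. As a description over 6 arrays, the correlation with the receptor mean was -0.90 for Smad3, -0.87 for Tgfb2, -0.80 for Tgfbr1, -0.79 for Tgfbr2 and 0.52 for Smad7.

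**Figure D3:**
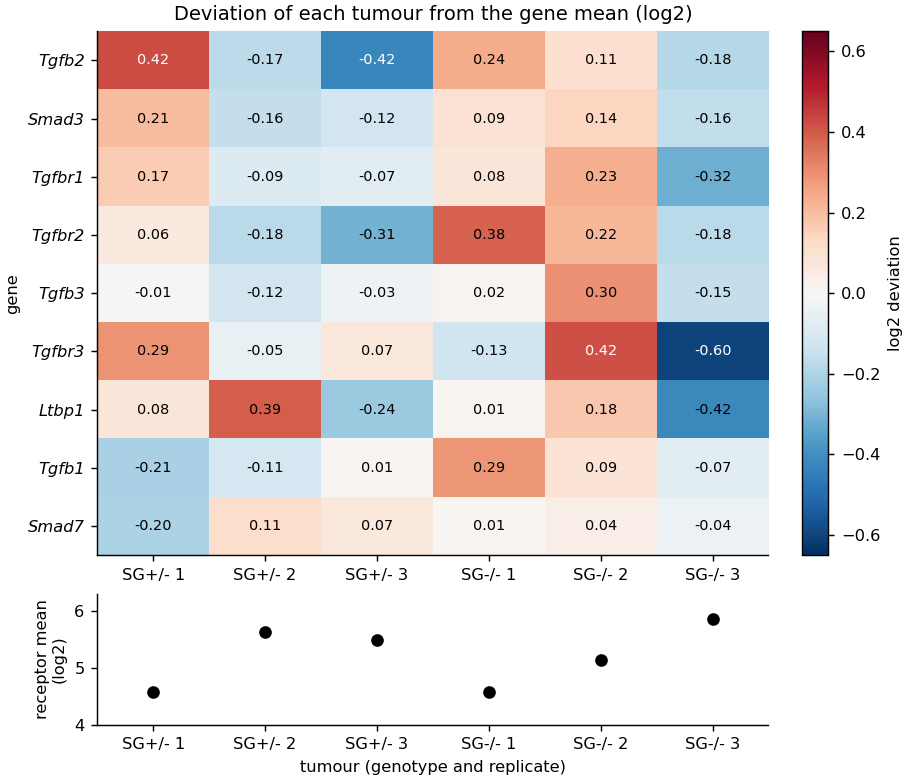
The upper panel gives the deviation of each tumour (columns) from the mean of each member over the 6 tumours (rows, log2, red above and blue below), and the lower panel gives the mean log2 value of the 1394 receptor genes in the same arrays. SG-/- replicate 3 is below the mean in every row, and Tgfb2, Smad3, Tgfbr1 and Tgfbr2 are above their means in SG+/- replicate 1 and in SG-/- replicates 1 and 2.

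The genes whose pattern over the 6 arrays was most like a member's are given as a description, out of 14860 genes above the dim level. High correlations were common, with 735 genes at an r over 0.9 with Tgfbr1 and 28 with Smad7. Tgfb1 was closest to Pof1b and Ramp1 (r = 0.99 each). Tgfb2 was closest to E230016M11Rik and Rhpn2 (0.98 each), and Tgfb3 to Tlcd4 and Fgfr2 (0.99 each). Among the receptors, Tgfbr1 was closest to Zfp747 and Camkk2 (1.00 each), Tgfbr2 to Arhgap30 and Tlr4 (0.99 each), and Tgfbr3 to Mcph1 (1.00) and Rtf1 (0.99). Ltbp1 was closest to Klhl22 (1.00) and Trim28 (0.99), Smad3 to Ermard (1.00) and Bcas3os2 (0.99), and Smad7 to Dmac1 (0.98) and H2ac10 (0.97).

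The other genes of the pathway were taken as 6 lists with 69 entries, of which 66 were measured. The lists were chosen with earlier results of these data known, so their counts are a description. None of the 66 passed the adjustment over all genes in limma, where 0% of all genes did. With an unadjusted p under 0.05 there were 6 of the 66, 5 higher (1.43% of all genes) and 1 lower (0.685% of all genes) in SG-/- tumours. In 6 of the 66 the genotypes did not overlap, 4 higher (2.84% of all genes) and 2 lower (3.19%). The 6 with an unadjusted p under 0.05 were Fmod, Dcn, Bgn, Postn, Fbn2 and Cdkn1a, and 3 of these belong to the 4 matrix binders. Leaving out SG-/- replicate 1 left 1 gene with such a p, and leaving out SG-/- replicate 3 gave 14.

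**Figure D4:**
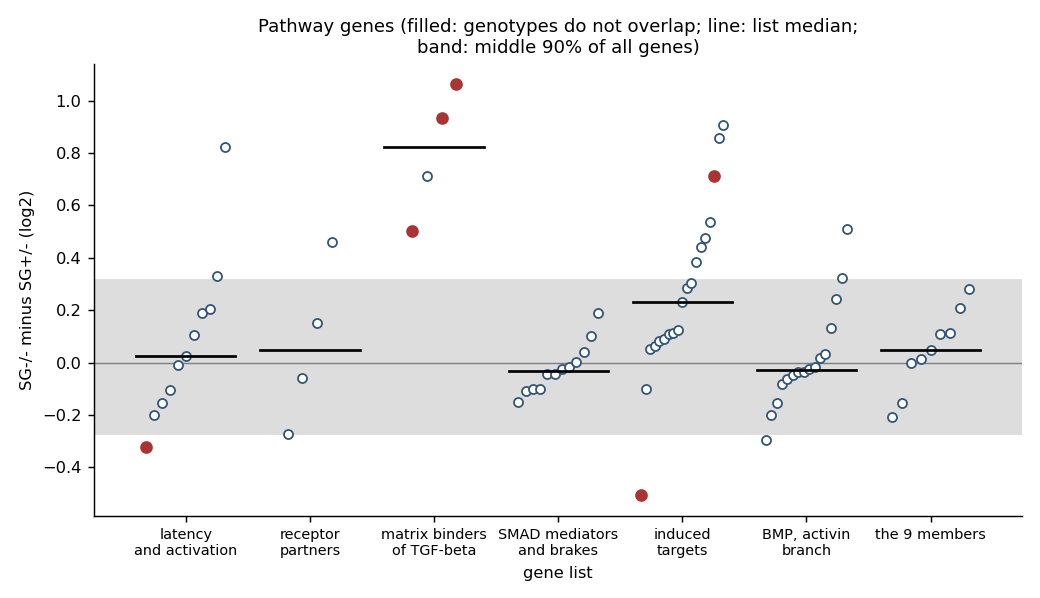
Each point is the SG-/- minus SG+/- difference (vertical axis, log2) of 1 gene of a pathway list (horizontal axis), filled where the genotypes do not overlap, with the list median as a line and the middle 90% of all genes as a band. The 4 matrix binders lie above the band, while the medians of the SMAD list and of the BMP and activin list lie near 0.

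The matrix binders are small leucine-rich proteoglycans that hold TGF-beta in the extracellular matrix. All 4 had a higher mean without serglycin, as did 46.3% of all genes, and their median difference was 0.82. Dcn, which encodes decorin, was 10.65, 10.63 and 9.78 in SG+/- and 11.87, 11.09 and 10.90 in SG-/- tumours. Every SG-/- tumour lay above every SG+/- tumour. The difference was 0.93, which is 1.91-fold (standard error 0.33, interval 0.15 to 1.71, limma adjusted p = 1.00, exact two-sided permutation p = 0.1). Fmod, fibromodulin, was 7.75, 7.82 and 7.83 in SG+/- and 8.84, 9.52 and 8.23 in SG-/- tumours, again without overlap. Its difference was 1.06 (standard error 0.30, limma adjusted p = 1.00) and was 0.71 with the mean of all its probe sets. Bgn, biglycan, was 12.09, 12.25 and 12.03 against 12.98, 12.52 and 12.37, a difference of 0.50 without overlap (standard error 0.18, limma adjusted p = 1.00). Aspn, asporin, did not share this order, with 8.56, 8.46 and 8.10 in SG+/- and 10.51, 8.13 and 8.62 in SG-/- tumours. Only SG-/- replicate 1 stood well above the others (difference 0.71, standard error 0.57, limma adjusted p = 1.00). Without SG-/- replicate 1 the median of the list was 0.48.

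These binders are also made by fibroblasts, and fibroblast markers moved in the same direction. All 8 fibroblast markers were higher on average in SG-/- tumours, by a median of 0.55, while 46.3% of all genes were higher. Leaving out SG-/- replicate 1 left 5 of 8 higher and a median of 0.24. The mean level of the 8 markers ran from 8.50 to 8.80 in SG+/- and from 8.90 to 9.82 in SG-/- tumours, and all 8 lay above the dim level. Dcn is itself 1 of the 8. Of 7 endothelial markers, 7 were higher, with mean levels of 7.77 to 8.0 and 8.06 to 8.49, and of 6 macrophage markers 6 were higher, with 8.09 to 8.31 and 8.27 to 9.24. Leaving out the same tumour kept both counts, and the medians went from 0.38 to 0.25 and from 0.46 to 0.24. The part of these cells in the differences was not tested.

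Induced targets are genes that TGF-beta switches on in many cells. Of the 19 measured, 17 were higher and 2 lower on average, with a median difference of 0.23. Over all genes 46.3% were higher. With arrays centred on their brighter genes, 57.3% of all genes and again 17 of the 19 targets were higher, with a target median of 0.27. The count of 17 rested on 1 tumour, since without SG-/- replicate 1 it was 11 of 19 and the median 0.012. With an unadjusted p under 0.05 there was 1 higher and 1 lower. Postn, which encodes the matrix protein periostin, was 11.76, 11.77 and 11.09 in SG+/- and 12.58, 12.19 and 11.99 in SG-/- tumours, with no overlap and a difference of 0.71 (standard error 0.24, interval 0.14 to 1.28, limma adjusted p = 1.00). Cdkn1a, the cell cycle inhibitor p21, went the other way. It was 10.39, 10.49 and 10.62 in SG+/- and 9.70, 10.09 and 10.20 in SG-/- tumours, with no overlap and a difference of -0.51 (standard error 0.17, interval -0.90 to -0.11, limma adjusted p = 1.00). Ccn2, the connective tissue growth factor and a classical target, was 9.83 ± 0.074 and 9.92 ± 0.29 (SD, n = 3 each), a difference of 0.092. Pmepa1, which TGF-beta induces and which restrains SMAD signalling, differed by 0.11, and Tgfbi by 0.54 with overlap.

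**Figure D5:**
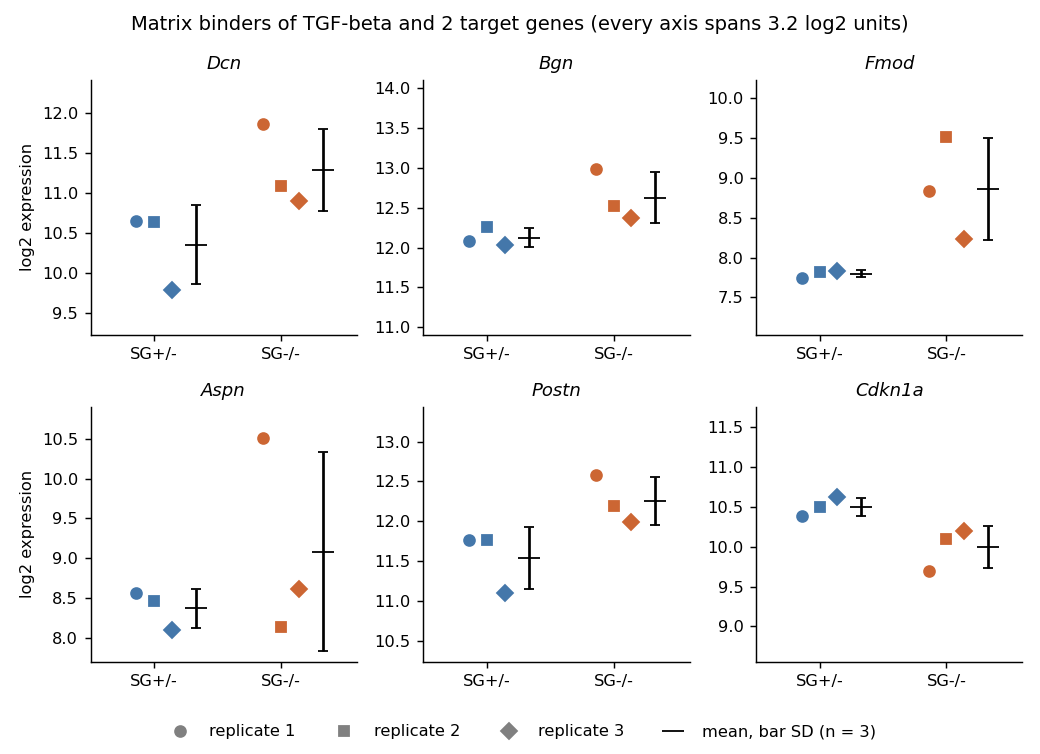
Each panel plots log2 expression (vertical axis, equal span in every panel) of 1 gene in the 3 SG+/- (blue) and 3 SG-/- (orange) tumours, with mean and SD. Dcn, Bgn, Fmod and Postn are higher in every SG-/- tumour than in any SG+/- tumour, Cdkn1a is lower, and Aspn is far above the other tumours in SG-/- replicate 1.

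Genes of latency and activation were split, with 6 of 11 higher, 5 lower and a median of 0.026. Fbn2, a fibrillin of the matrix fibres that latent binding proteins attach to, was 7.08, 7.32 and 7.07 in SG+/- and 8.19, 8.51 and 7.24 in SG-/- tumours. SG-/- replicates 1 and 2 stood above all other tumours, while SG-/- replicate 3 lay within the SG+/- range. The difference was 0.82 (standard error 0.32, interval 0.078 to 1.57, limma adjusted p = 1.00). Itgb6, a subunit of an integrin that releases TGF-beta in epithelium, was 7.38 ± 0.094 and 7.71 ± 0.23 (SD, n = 3 each), a difference of 0.33, which became 0.21 with SG-/- replicate 1 left out. Thbs1, thrombospondin, which can activate the latent factor, was the one gene of this list without overlap, at 11.66 ± 0.14 and 11.33 ± 0.22, a difference of -0.32 with a gap of only 0.0092 between the nearest tumours. Ltbp2, a relative of Ltbp1, differed by 0.026.

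Of the receptor partners, 2 of 4 were higher. Eng, endoglin, a co-receptor of endothelial cells, was 8.58, 8.36 and 8.83 in SG+/- and 9.22, 9.25 and 8.69 in SG-/- tumours, a difference of 0.46 with overlap (standard error 0.20, interval -0.018 to 0.94, limma adjusted p = 1.00). Bambi, a decoy receptor that lacks a kinase, differed by -0.27 with overlap. The SMAD mediators and brakes held the tightest differences of the 6 lists, from -0.15 to 0.19 over 12 genes with a median of -0.034, and none had an unadjusted p under 0.05. Smad2, the partner of Smad3, differed by -0.015, the ubiquitin ligase gene Nedd4l by -0.15 and the corepressor gene Tgif2 by 0.10. In the BMP and activin branch 6 of 16 were higher, with a median of -0.029. Bmp2 and Bmp4, ligands of this branch, differed by 0.24 and -0.30, and Id3, a target of BMP signals, by 0.32, all with overlap between genotypes. Single tumours moved several of these values. Leaving out SG+/- replicate 2 made Bambi -0.13, Bmp4 -0.18, Nedd4l -0.29 and Tgif2 0.066, and leaving out SG+/- replicate 1 made Nedd4l -0.022. Leaving out SG+/- replicate 3 made Bmp2 0.13, Bambi -0.41 and Tgif2 0.16, and leaving out SG-/- replicate 1 made Id3 0.18. Leaving out SG-/- replicate 2 made Bmp2 0.14 and Tgif2 0.067. Leaving out SG-/- replicate 3 made Bmp2 0.38, Bambi -0.14 and Nedd4l -0.080. With array weights Bambi differed by -0.036 and Bmp2 by 0.49.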

How the data were processed

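RNA from 6 snap-frozen tumours was measured on Affymetrix whole-transcript arrays, 1 per tumour. The authors deposited log2 values per probe set after RMA, the robust multi-array average, which removes background, normalizes arrays to each other and summarises the probes. Affymetrix Expression Console, RMA and limma are named in the submitters' processing notes, with no versions. All 33793 probe sets had a value in every array. The platform annotation gave 23521 probe sets exactly 1 symbol. For genes with several, the probe set with the highest mean was kept, which left 22180 genes. The sources used here do not say where probe sets lie on their transcripts.

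Genotypes were compared two-sided in limma 3.58.1 (lmFit and eBayes, R 4.3.3), and p-values were adjusted by Benjamini-Hochberg over the 22180 genes, with 0.05 as the threshold. The 6 tumours were treated as separate animals, which the labels used here do not state, and replicate numbers follow accession order. The test was first tried on simulated data with independent noise, which do not carry the differences between arrays seen here. The members and lists were chosen with earlier results of these data known. The text names every member and, of each pathway list, the gene written first and the 2 with the smallest p. Bgn, Aspn, Thbs1, Pmepa1 and Tgfbi were added after their values were seen. Dcn and Col1a1 are also fibroblast markers and Acta2 a pericyte marker. Of 75 marker entries in 14 lists, 73 were measured. Median differences of marker lists that stand beside no result were 0.23 (pericytes and smooth muscle), 0.30 (T cells), 0.31 (B cells), -0.014 (platelets), 0.30 (mast cells), 0.23 (basal cells), 0.059 (luminal cells), -0.12 (milk proteins), 0.29 (adipocytes) and -0.0058 (skeletal muscle). Promoter letters come from RefSeq. Plots were drawn with matplotlib 3.10.9.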

Additional observations from a re-analysis of the deposited data

How the results depend on the processing

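The comparison was repeated under 13 other settings: 7 of processing and 6 that leave out 1 tumour each. No member and none of the 16 pathway genes named by the rule passed the adjusted limma threshold in any of them, and of their 325 values 299 kept their direction and 26 turned. Members with an unadjusted limma p under 0.05, 0 as reported, numbered 1 after a further quantile normalization, 1 after centring on brighter genes, 2 with array weights and 0 to 1 with 1 tumour left out. Tgfbr2 was among them each time there were any, at 0.33, 0.32 and 0.43 in the first 3, and with array weights Tgfb3 joined it at 0.28. The array weights were 0.96, 4.95 and 0.20 for SG-/- replicates 1, 2 and 3. All values with array weights therefore lean on SG-/- replicate 2. Members higher in SG-/- tumours, 6 as reported, numbered 7 after quantile normalization, 7 after centring and 9 with array weights. With 1 tumour left out they numbered 3 to 9: 3 without SG-/- replicate 2 and 9 without SG-/- replicate 3. Pathway genes with such a p, 6 as reported, numbered 11 after centring, 16 with array weights and 1 to 14 with 1 tumour left out. Genes with such a p over the whole array numbered 469 as reported, 2569 with array weights, 1038 with the receptor mean as a covariate and 327 to 1200 with 1 tumour left out. With that covariate 1 gene passed the adjusted threshold, Srgn, at -1.53 (limma adjusted p = 0.0446). With 1 tumour left out 0 to 1 genes passed, and Srgn did not pass in any of those fits. Leaving out dim genes removes Srgn.

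The values that turned were these. With array weights Ltbp1 differed by 0.17, Tgfbr1 by 0.22, Tgfbr3 by 0.21 and Smad2 by 0.14. After quantile normalization Tgfbr1 differed by 0.049 and Smad2 by 0.032, and after centring by 0.038 and 0.025. With 1 tumour left out, differences ran from -0.070 to 0.35 for Tgfb2, from -0.014 to 0.21 for Tgfb3, from -0.31 to 0.015 for Ltbp1, from -0.12 to 0.16 for Tgfbr1 and from -0.47 to 0.041 for Tgfbr3. They ran from -0.017 to 0.16 for Smad3, from -0.084 to 0.075 for Smad7, from -0.26 to 0.28 for Ltbp2, from -0.086 to 0.12 for Smad2 and from -0.064 to 0.22 for Ccn2. The cause of these shifts was not tested. No paired analysis was possible because the labels give the mice no shared replicate numbers.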
